A study of Mus musculus with 6 samples.

Results

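Insulin-like growth factor (IGF) signalling was examined in the ductus arteriosus (DA), the fetal artery that joins the pulmonary artery to the aorta. The gene set comprised 9 of the 23997 genes in the deposited expression table, chosen by gene symbol: the ligand gene *Igf1*, the receptor genes *Igf1r* and *Insr*, and the binding protein genes *Igfbp2* to *Igfbp7*. Bulk RNA-Seq had been carried out on whole DA of C57BL/6 embryos at E17.5, with 3 libraries of wild-type embryos (WT) and 3 libraries of embryos labelled Prdm6f/f; SM22-Cre (KO). Both groups were untreated. In the KO embryos both alleles of *Prdm6*, a smooth muscle histone methyltransferase gene, were floxed, and *SM22-Cre* expressed Cre-recombinase in smooth muscle cells, 1 of several cell types in the dissected vessel. The labels do not say how many embryos were pooled in a library, and they do not mention Cre or floxed alleles in the WT group.

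IGF1 is a secreted growth factor that binds a receptor tyrosine kinase, IGF1R. The related insulin receptor, INSR, can pair with it in hybrid receptors. Both receptors signal through insulin receptor substrates to the PI3K-AKT and RAS-MAPK pathways, which promote growth and survival of vascular smooth muscle. The IGF binding proteins (IGFBPs) are secreted proteins that hold IGFs in the extracellular space, prolong their life, and block or aid their access to the receptor, and proteases release the IGFs by cutting them. The second ligand gene, *Igf2*, and its receptor gene *Igf2r* are imprinted and were not part of the set.

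The values are FPKM, the fragments assigned to a gene, scaled by transcript length and by the mapped fragments of the library, so levels can be set side by side between genes. The depth of the libraries is unknown, since the deposited values give no read totals. Between 8338 and 11886 genes were listed at 0 in a library, but none of the 9 IGF genes was. All 10 smooth muscle markers examined were above 0 in all 6 libraries, with a summed level of 3254 to 6843 FPKM in WT and 1220 to 3222 FPKM in KO, and 10 of 10 had a negative log2 fold change. In the other direction, the summed level of 9 Schwann cell markers was 17.9 to 42.0 FPKM in WT and 52.3 to 175 FPKM in KO. WT library 1 and KO library 2 held the most heart muscle transcripts, with 10 markers summing to 956 and 955 FPKM against 49.3 to 499 FPKM in the others. KO library 0 held both *Xist*, at 81.0 FPKM, and the Y-linked *Ddx3y*, at 26.4 FPKM. WT library 0 and KO library 1 had *Xist* at 67.0 and 82.8 FPKM and *Ddx3y* at 0 and 0.383 FPKM. WT libraries 1 and 2 and KO library 2 had *Xist* at 0.0530, 0.0431 and 0.0472 FPKM and *Ddx3y* at 24.0, 23.4 and 20.1 FPKM. These sex-linked transcripts thus differed within both groups, and the part of sex in the values of the IGF genes was not tested. *Prdm6* itself was at 41.7, 48.4 and 19.8 FPKM in WT and 48.6, 27.1 and 15.4 FPKM in KO, which does not check the labels because the sources used here do not say which part of the gene is floxed. The groups overlapped in these values, whereas the paper reports lower *Prdm6* by qRT-PCR in the DA and aorta of such KO mice. In bulk tissue, fewer cells of a type and less RNA per cell cannot be told apart.

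All 9 IGF genes were well expressed, with mean levels from 13.9 FPKM for *Insr* to 298 FPKM for *Igfbp4*. The binding protein transcripts dominated the set. *Igfbp4* and *Igfbp5* held the first and second ranks in each of the 6 libraries, and their order with each other varied. In WT the mean level was 322 ± 140 FPKM for *Igfbp4* and 315 ± 112 FPKM for *Igfbp5* (SD, n = 3), and the lowest *Igfbp5* value, 232 FPKM, was above the highest value of the next gene, *Igfbp7*, 72.3 FPKM. *Igfbp7* (64.5 ± 6.95 FPKM), *Igf1* (60.4 ± 29.1 FPKM), *Igfbp2* (59.1 ± 36.8 FPKM), *Igfbp3* (35.7 ± 19.3 FPKM), *Igf1r* (31.0 ± 2.47 FPKM), *Igfbp6* (22.4 ± 17.7 FPKM) and *Insr* (13.5 ± 3.09 FPKM) followed (SD, n = 3), and each of these overlapped its neighbour in the order. In KO the order was *Igfbp4*, *Igfbp5*, *Igf1*, *Igfbp3*, *Igf1r*, *Igfbp7*, *Igfbp6*, *Insr* and *Igfbp2*, and every neighbouring pair overlapped. By its mean, *Igfbp2* was above 4 of the other genes in WT and below all of them in KO.

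**Figure D1:**
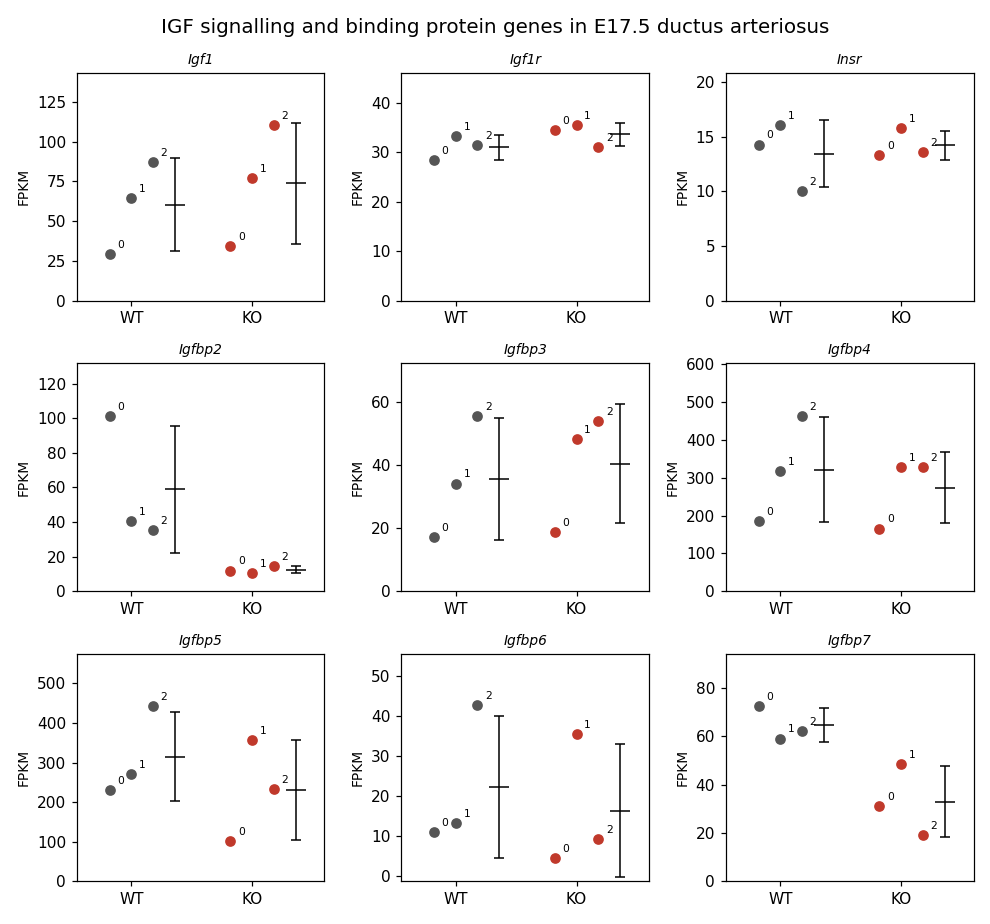
FPKM of the 9 IGF genes (vertical axes, linear) in WT (grey) and KO (red) libraries, each point being 1 library marked with its number, and the black bars the mean ± SD of 3 libraries. *Igfbp2* and *Igfbp7* are the genes whose KO points all lie below their WT points, and *Igf1r* spans the narrowest range for its level, from 28.4 to 35.4 FPKM.

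The question of the comparison was whether transcript levels in the DA differ when *Prdm6* is targeted in smooth muscle. Of the 9 IGF genes, *Igfbp2* and *Igfbp7* had lower FPKM in every KO library than in any WT library, and the groups overlapped for the other 7. None passed an adjusted p of 0.05 in limma's fit on log2(FPKM + 0.1) across the 12955 genes with a mean of at least 1 FPKM, in which 1 gene, or 0.00772%, passed. The adjusted p of the IGF genes ran from 0.332 to 0.913. Before adjustment 2 of 9 (22.2%) had a p under 0.05 and a negative log2 fold change, where 4.97% of all genes did, and 0 of 9 had such a p and a positive one, where 3.31% of all genes did. The same 2 genes had groups that did not overlap with KO lower, as had 7.84% of all genes, and 0 had groups that did not overlap with KO higher, as had 8.21% of all genes. The median log2 fold change, KO minus WT, was -0.20 over the 9 genes and 0.072 over all genes tested. Nothing in the labels says that the libraries came from separate embryos, so the p-values measure the spread between these libraries.

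**Figure D2:**
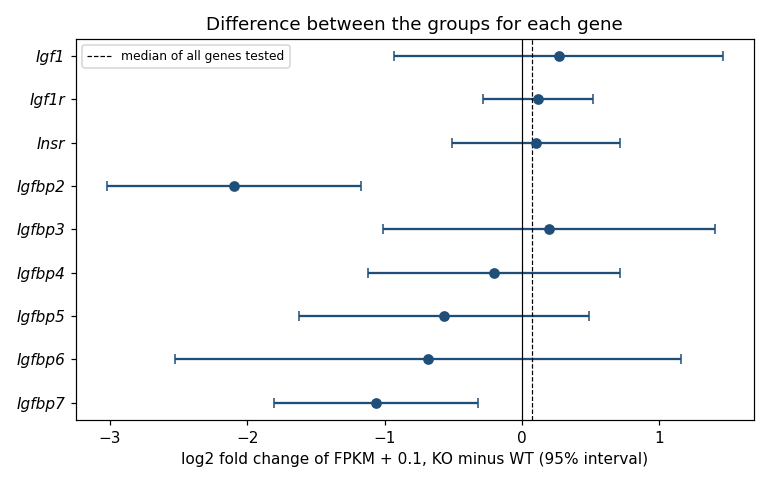
Log2 fold change of FPKM + 0.1, KO minus WT, for each IGF gene (horizontal axis), with bars for the 95% interval from limma and a dashed line at the median of all genes tested. The intervals of *Igfbp2* (-3.02 to -1.17) and *Igfbp7* (-1.80 to -0.32) lie below 0, without adjustment for the number of genes, and the other 7 span 0.

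*Igf1*, the ligand gene, was at 29.5, 64.7 and 87.1 FPKM in WT libraries 0, 1 and 2 and at 34.0, 77.3 and 110 FPKM in KO libraries 0, 1 and 2. The groups overlapped over nearly their whole range, and library 0 of each group was the lowest. The log2 fold change was 0.27 (95% interval -0.93 to 1.46, adjusted p = 0.874), and it was negative without WT library 0 (-0.18) or without KO library 2 (-0.099). *Igf1* spans positions 87858265 to 87937042 of chromosome 10 on the plus strand (GRCm38, also called mm10, as for all positions given), and its longest coding transcript in GENCODE has 4 exons. An antisense gene, *Igf1os*, overlaps it, and whether the counting used strand is not given in the sources used here. The same holds for antisense genes inside *Insr* and *Igfbp7*.

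The receptor genes were the steadiest of the set. *Igf1r*, the gene of the main IGF1 receptor (chromosome 7, 67952827 to 68233668, plus strand), was at 28.4, 33.3 and 31.4 FPKM in WT and at 34.6, 35.4 and 31.0 FPKM in KO. The highest library was 1.25 times the lowest, and the standard error of the log2 fold change was 0.17, where the median over all genes was 0.41. The log2 fold change was 0.12 and its 95% interval ran from -0.28 to 0.52, that is from 0.824-fold to 1.43-fold (adjusted p = 0.830). *Insr*, the insulin receptor gene (chromosome 8, 3122061 to 3279617, minus strand), was at 14.3, 16.0 and 10.0 FPKM in WT and at 13.3, 15.8 and 13.6 FPKM in KO. Its KO values all lay within the WT range, with a log2 fold change of 0.10 (95% interval -0.51 to 0.72, adjusted p = 0.912). Within each library *Igf1r* exceeded *Insr*, by 1.98 to 3.13 times in WT and by 2.25 to 2.60 times in KO.

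*Igfbp2*, which encodes a binding protein abundant in fetal tissues, had the largest difference of the set. It was at 102, 40.3 and 35.4 FPKM in WT libraries 0, 1 and 2 and at 11.8, 10.5 and 14.7 FPKM in KO libraries 0, 1 and 2. The KO libraries were tightly grouped at 12.3 ± 2.15 FPKM (SD, n = 3), the WT libraries were spread over a wide range, and the groups did not overlap. *Igfbp2* differed by a log2 fold change of -2.10 with a standard error of 0.40 (unadjusted p = 0.000877, adjusted p = 0.332 from limma), or 4.28 times lower in KO, and the two-sided exact permutation test gave p = 0.1, the smallest that 3 libraries against 3 allow. A smaller unadjusted p was found for 33 of the 12955 genes, and 173 had a lower log2 fold change. Among the 3506 genes with a mean of at least 20 FPKM, 27 had a lower log2 fold change than *Igfbp2*. *Igfbp2* passed this cut through its WT level, since its KO mean was 12.3 FPKM, so this rank is a description. With any 1 library left out, the log2 fold change of *Igfbp2* stayed between -2.38 and -1.62, so it did not rest on the high WT library 0.

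**Figure D3:**
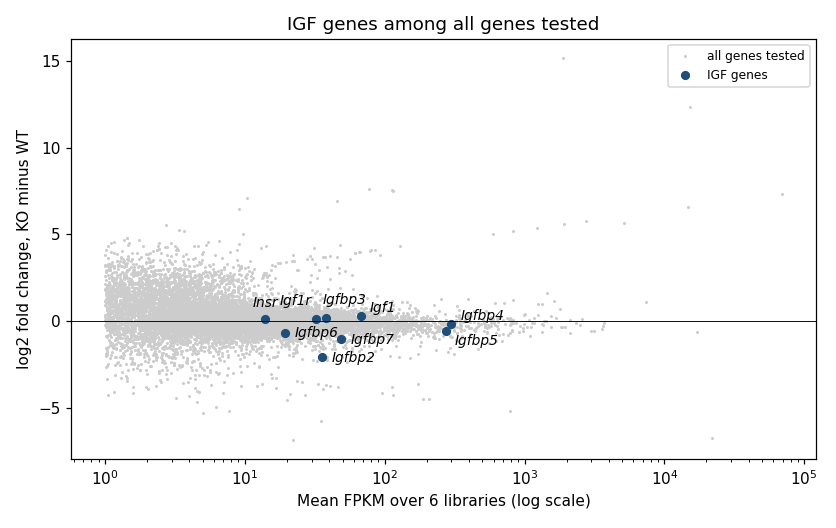
Log2 fold change, KO minus WT (vertical axis), against mean FPKM over 6 libraries (horizontal axis, log scale) for the 12955 genes tested (grey) and the 9 IGF genes (blue). *Igfbp2* lies toward the lower edge of the genes of like level, and the other IGF genes lie among the bulk of the genes, with *Igfbp7* toward its lower side.

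The level of *Igfbp2* was set beside that of the smooth muscle markers, which were also lower in KO. WT library 2 and KO library 0 had nearly equal summed smooth muscle markers, at 3254 and 3222 FPKM, and *Igfbp2* was at 35.4 and 11.8 FPKM in them. The single markers were not matched, and differed in both directions. In WT library 2 and KO library 0, *Acta2* was at 855 and 1161 FPKM and *Myl9* at 781 and 835 FPKM. *Myh11* was at 308 and 148 FPKM and *Lmod1* at 76.8 and 24.1 FPKM in the same libraries. KO library 2 had the lowest sum of these markers, 1220 FPKM, and the highest *Igfbp2* of the KO group, 14.7 FPKM. Per 1000 FPKM of smooth muscle markers, *Igfbp2* was at 14.8, 11.5 and 10.9 in WT and at 3.68, 4.59 and 12.0 in KO, so that KO library 2 lay within the WT range and the other 2 lay below it. The paper reports lower *Myh11* and *Tagln*, which are among these markers, in the DA of such KO mice. The ratios are thus no measure of *Igfbp2* per smooth muscle cell. The part of the smooth muscle markers in the difference of *Igfbp2* was otherwise not tested.

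**Figure D4:**
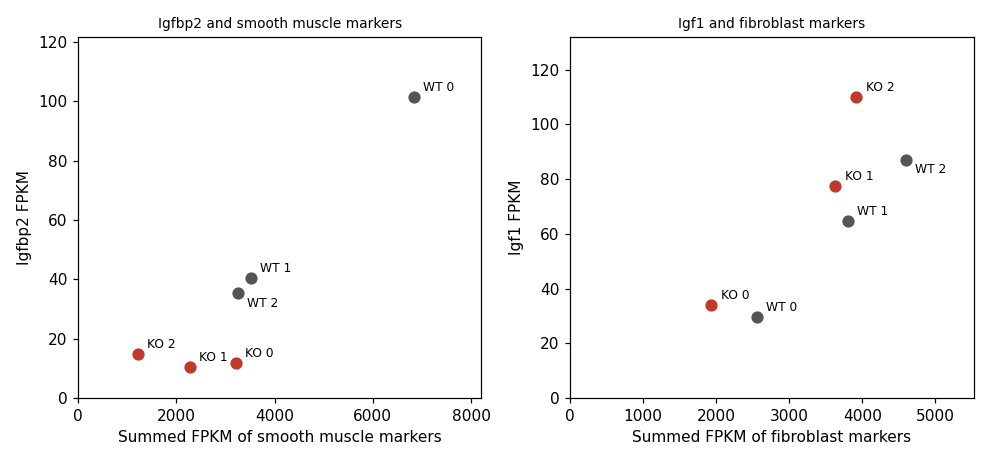
Left, *Igfbp2* FPKM against the summed FPKM of 10 smooth muscle markers. Right, *Igf1* FPKM against the summed FPKM of 9 fibroblast markers. Each point is 1 library, WT in grey and KO in red, on linear axes from 0. WT 2 and KO 0 nearly share a horizontal position on the left but differ in *Igfbp2* (35.4 and 11.8 FPKM), and on the right the libraries numbered 0 of both groups lie lowest in *Igf1* (29.5 and 34.0 FPKM).

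*Igfbp7* encodes a secreted vascular and matrix-associated relative of the IGFBPs that binds IGFs only weakly. It was at 72.3, 59.0 and 62.2 FPKM in WT and at 31.1, 48.3 and 19.3 FPKM in KO. Here the WT libraries were the tight group, at 64.5 ± 6.95 FPKM, the KO libraries varied at 32.9 ± 14.6 FPKM (SD, n = 3), and the groups did not overlap. *Igfbp7* differed by a log2 fold change of -1.06 with a standard error of 0.32 (unadjusted p = 0.0112, adjusted p = 0.535 from limma), or 2.09 times lower in KO, and the two-sided exact permutation test gave p = 0.1. Without both libraries numbered 0, the log2 fold change was -0.99 and its standard error 0.47 with 4 libraries (unadjusted p = 0.0982 from limma), so the difference was about as large and less precise. The summed level of 9 endothelial markers was 384 to 535 FPKM in WT and 458 to 702 FPKM in KO, with 7 of the 9 having a positive log2 fold change, and the sums overlapped. Per 1000 FPKM of these markers *Igfbp7* was at 168, 154 and 116 in WT and at 67.9, 68.8 and 30.4 in KO, without overlap, on a denominator whose highest values were in KO. Per 1000 FPKM of smooth muscle markers it was at 10.6, 16.8 and 19.1 in WT and at 9.67, 21.2 and 15.8 in KO, and the groups overlapped. The ratios to smooth muscle markers have the same limit as those of *Igfbp2*. The part of either cell type in the difference of *Igfbp7* was not tested beyond these ratios. The final 85 bases of *Igfbp7* overlap the end of *Polr2b*, an RNA polymerase II subunit gene on the other strand, which had a log2 fold change of 0.032.

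The promoters of these 2 genes are shown because theirs were the groups that did not overlap. Each line gives the 250 bases before the RefSeq start (GRCm38.p6), read along the strand of the gene, with GC boxes (GGGCGG or its reverse complement CCGCCC) in capitals.
*Igfbp2*, chr1:72824230-72824479, plus strand: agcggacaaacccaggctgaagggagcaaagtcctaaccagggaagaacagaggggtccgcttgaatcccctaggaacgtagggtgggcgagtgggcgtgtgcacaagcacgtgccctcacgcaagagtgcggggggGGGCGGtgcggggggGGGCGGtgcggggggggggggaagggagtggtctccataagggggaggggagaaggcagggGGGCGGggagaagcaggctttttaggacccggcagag
*Igfbp7*, chr5:77408046-77408295, minus strand: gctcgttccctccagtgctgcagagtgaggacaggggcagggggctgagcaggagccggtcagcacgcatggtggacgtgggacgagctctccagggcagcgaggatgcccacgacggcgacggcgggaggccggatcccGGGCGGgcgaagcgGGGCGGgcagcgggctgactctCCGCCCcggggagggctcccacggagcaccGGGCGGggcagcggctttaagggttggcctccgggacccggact
The *Igfbp2* window held 3 GC boxes and had a GC content of 67.2%, and the *Igfbp7* window held 4 and had a GC content of 74.0%. GC boxes, the binding motif of SP-family factors, were present in 32.7% of the 32817 promoter windows of this length, and of the other IGF genes in the table in *Igf1r* alone, with 2. No window of an IGF gene held a CArG box, the motif bound by serum response factor at many smooth muscle genes, which 1.47% of all windows held. A match to the TATA box motif (TATAAA or TTTATA), at any position, was in the windows of *Igfbp4* and *Igfbp6* and in 12.4% of all windows. In *Igfbp6* the match was TTTATA and did not lie near the start. Both strands were searched, the end letters of a GC box can be shared with a CArG box, and a CArG box can contain a TATA box. The table had windows for 8 of the 9 genes, 2 of them for *Igfbp2*, whose second start had none of these motifs. *Insr* had no entry.

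*Igfbp5*, the neighbour of *Igfbp2*, was not lower in every KO library. The genes lie tail to tail on chromosome 1, *Igfbp2* from 72824503 to 72852474 on the plus strand and *Igfbp5* from 72857932 to 72874884 on the minus strand, with 5457 bases and 0 protein-coding genes between them. *Igfbp5*, whose product binds the extracellular matrix, was at 232, 272 and 442 FPKM in WT and at 103, 357 and 234 FPKM in KO. The groups overlapped, with KO library 0 the lowest of all. The log2 fold change was -0.57 (95% interval -1.62 to 0.49, adjusted p = 0.723), and it was between -0.97 and -0.070 with a library left out. The ratio of *Igfbp5* to *Igfbp2* within a library was 2.28, 6.75 and 12.5 in WT and 8.67, 34.1 and 15.9 in KO, with KO library 0 inside the WT range.

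*Igf1*, *Igfbp3* and *Igfbp4* varied more between the libraries of a group than between the groups. *Igfbp3*, whose product carries most circulating IGF after birth (chromosome 11, 7206086 to 7213923, minus strand), was at 17.2, 34.2 and 55.7 FPKM in WT and at 18.8, 48.4 and 54.0 FPKM in KO. *Igfbp4*, whose product mostly restrains IGF action until it is cut by the protease PAPP-A (chromosome 11, 99041244 to 99054392, plus strand), was at 184, 317 and 464 FPKM in WT and at 165, 328 and 328 FPKM in KO. As with *Igf1*, library 0 of each group was the lowest. The log2 fold changes were 0.20 (95% interval -1.01 to 1.41, adjusted p = 0.913) for *Igfbp3* and -0.20 (95% interval -1.12 to 0.72, adjusted p = 0.876) for *Igfbp4*. The summed level of 9 fibroblast markers was 2559, 3809 and 4602 FPKM in WT and 1936, 3633 and 3920 FPKM in KO, and library 0 of each group was again the lowest. *Col1a1* and *Col1a2* made up most of this sum. The list was mixed, with 6 negative and 3 positive log2 fold changes. *Lum* was higher in every KO library than in any WT library, and *Pi16* was lower in every one. Per 1000 FPKM of these markers, *Igfbp4* ranged from 72.0 to 101 in WT and from 83.8 to 90.3 in KO. *Igf1* ranged from 11.5 to 18.9 in WT and from 17.6 to 28.1 in KO on the same scale, with overlap. The part of fibroblast content in these values was not tested beyond these ratios. Of the 36 pairs among the 9 genes, *Igf1* and *Igfbp3* were the most alike over the 6 libraries, with a root mean square difference of 0.13 between their deviations on the log2 scale.

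*Igfbp6*, whose product prefers IGF2 (chromosome 15, 102144362 to 102149511, plus strand), was at 11.0, 13.3 and 42.8 FPKM in WT and at 4.51, 35.5 and 9.32 FPKM in KO. One library of each group was high, WT library 2 and KO library 1, and the highest of the 6 was 9.49 times the lowest. The log2 fold change of -0.68 had a 95% interval from -2.52 to 1.16 (adjusted p = 0.791), the widest of the set. It was -1.49 without KO library 1, -0.079 without WT library 2 and -0.019 without KO library 0. Over the 6 binding protein genes, 5 had a negative log2 fold change, and the count was 4 to 6 over the alternatives. It was 4 with quantile normalization, without WT library 2 and without KO library 0, and 6 without WT library 0, without KO library 1, without KO library 2 and without both WT library 1 and KO library 2.

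Shares within a library do not depend on the scaling between libraries. The 6 binding protein genes summed to 618, 736 and 1102 FPKM in WT and to 334, 827 and 659 FPKM in KO, which overlap. *Igfbp4* and *Igfbp5* together made up 67.3% to 82.2% of this sum in WT and 80.2% to 85.2% in KO. *Igfbp2* made up 16.4%, 5.48% and 3.22% in WT and 3.54%, 1.26% and 2.23% in KO, so KO library 0 lay just inside the WT range. *Igfbp7* made up 11.7%, 8.02% and 5.64% in WT and 9.31%, 5.84% and 2.93% in KO, and overlapped. *Igfbp3* made up 2.78%, 4.64% and 5.05% in WT and 5.64%, 5.85% and 8.20% in KO, and here each KO share was above each WT share although the FPKM of the gene overlapped. These shares are descriptions and were not tested. The sum of the 6 was 11.4 to 21.0 times the level of *Igf1* in WT and 5.99 to 10.7 times in KO. The groups lay narrowly apart in this ratio, overlapped in the sum and in *Igf1* itself, and the ratio was not tested. *Igf1* was 1.04 to 2.77 times *Igf1r* in WT and 0.984 to 3.55 times in KO, with overlap.

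**Figure D5:**
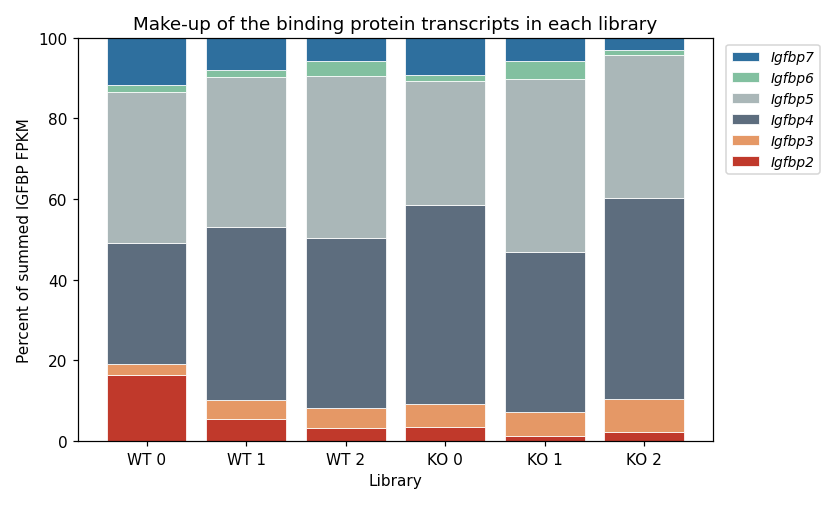
Percent of the summed FPKM of the 6 IGFBP genes that each gene held (vertical axis) in each library (horizontal axis), stacked. *Igfbp4* and *Igfbp5* fill most of every bar, and the *Igfbp2* segment at the foot is largest in WT library 0, at 16.4%.

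The genes whose pattern over the 6 libraries was most like that of *Igfbp2*, by the root mean square difference of the deviations on the log2 scale, were *Stac* (0.23), *Akap5* (0.29), *Ptger4* (0.31), *Pdcl3* (0.35) and *Dpm2* (0.37). *Ptger4* encodes EP4, a receptor for prostaglandin E2. It was at 32.4, 22.8 and 21.8 FPKM in WT and at 5.10, 5.51 and 7.61 FPKM in KO, with a log2 fold change of -2.06 (adjusted p = 0.172 from limma). *Stac*, which encodes an adaptor protein of calcium channels, was at 16.9, 10.5 and 9.53 FPKM in WT and at 2.59, 2.16 and 3.54 FPKM in KO. For *Igfbp4*, the gene of highest mean level, the nearest were *Pgm2* (0.095), *Stx2* (0.11), *Rsbn1* (0.11), *Rnf170* (0.12) and *Zfp217* (0.12). The libraries are shared by all of these genes, so a likeness over 6 points is a description. The pattern used for the choice includes the difference between the groups. A log2 fold change of *Ptger4* or *Stac* near that of *Igfbp2* therefore follows from the choice.

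The wider pathway was read from 6 lists with 95 genes, of which 85 passed the filter, and 0 of these passed an adjusted p of 0.05. Before adjustment 2 had a p under 0.05 with a negative log2 fold change and 4 with a positive one, where 4.97% and 3.31% of all genes tested did, so these counts are near the background. In 1 of the 85 the groups did not overlap with KO lower and in 5 with KO higher, where 7.84% and 8.21% of all genes did. The median log2 fold change was 0.037, against 0.072 over all genes. Among 11 tested genes of IGFBP proteases and their inhibitors, 10 had a negative log2 fold change, with a median of -0.31. The groups did not overlap in 0 of these 11, and the list is 1 of the 6 that were read, so the count is a description. *Htra3*, a secreted serine protease gene, was at 27.1, 41.6 and 48.1 FPKM in WT and at 12.4, 30.3 and 18.3 FPKM in KO (unadjusted p = 0.0277, adjusted p = 0.574 from limma). *Stc2*, which encodes an inhibitor of PAPP-A, was at 11.9, 1.15 and 12.5 FPKM in WT and at 1.21, 1.17 and 0.516 FPKM in KO, with WT library 1 at the KO level (unadjusted p = 0.0380, adjusted p = 0.591 from limma). By the mean, *Stc2* was at 8.51 FPKM in WT and 0.966 FPKM in KO. It thus passed the filter of 1 FPKM only through the WT libraries, where it was high, so its difference is a description. Of 31 tested genes of the receptor substrates and the PI3K-AKT arm, 11 had a negative and 20 a positive log2 fold change, with a median of 0.11. *Foxo4*, a transcription factor gene whose product AKT inhibits, was at 6.11, 8.66 and 1.46 FPKM in WT and at 11.7, 15.3 and 12.0 FPKM in KO (unadjusted p = 0.0380, adjusted p = 0.591 from limma). Of 18 genes of the RAS-MAPK arm, 8 had a negative and 10 a positive log2 fold change. *Nras*, a small GTPase gene, was at 8.62, 8.39 and 6.11 FPKM in WT and at 14.3, 14.2 and 14.2 FPKM in KO, with a log2 fold change of 0.89 (unadjusted p = 0.0107, adjusted p = 0.535 from limma). Both genes are among the 5 whose KO libraries were all above the WT libraries.

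In the list of growth hormone input, 6 of 8 genes had a positive log2 fold change. *Socs1*, a feedback inhibitor of JAK-STAT signalling, was listed at 0, 0.742 and 0 FPKM in WT and at 1.86, 3.74 and 1.38 FPKM in KO (unadjusted p = 0.0462, adjusted p = 0.600 from limma). Of 12 genes known as FOXO targets, 7 had a positive and 5 a negative log2 fold change. *Gadd45a*, a stress response gene, was listed at 0, 0.960 and 0 FPKM in WT and at 4.71, 7.44 and 1.59 FPKM in KO (unadjusted p = 0.0169, adjusted p = 0.545 from limma). These 2 genes are also among the 5 without overlap. Both had a low level, and an exact 0 in such a table can be a failed estimate. By the mean, *Socs1* was at 0.247 FPKM in WT and 2.33 FPKM in KO, and *Gadd45a* at 0.320 and 4.58 FPKM. They thus passed the filter of 1 FPKM only through the KO libraries, where they were high, so their lack of overlap is a description. Only 5 of 13 IGF family relatives passed the filter, with no unadjusted p under 0.05. The most abundant of them were *Igf2bp2*, an RNA-binding protein gene, at 23.5 FPKM in WT and 23.0 FPKM in KO by the mean, and *Kazald1*, which encodes a protein with an IGFBP-like domain, at 19.1 and 21.2 FPKM. The log2 fold change of *Kazald1* was negative, at -0.15. Its libraries were at 26.6, 13.4 and 17.4 FPKM in WT and at 41.5, 14.9 and 7.24 FPKM in KO.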

How the data were processed

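Bulk RNA-Seq values of 6 DA libraries, 3 WT and 3 KO, were analysed. Per the labels and the methods, the authors trimmed reads by quality and length and used TopHat2 for alignment to mm10. The deposited FPKM come from Cufflinks and Cuffdiff. Versions, gene annotation, scaling between libraries and strand use are not given in the sources used here. Groups and replicate numbers were read from the sample titles, and every column was matched to a title. FPKM are not counts, so no count test was used and no counting interval was computed.

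Genes with a mean of at least 1 FPKM over the 6 libraries (12955) were compared on log2(FPKM + 0.1), a scale that understates changes of low genes, with limma 3.58.1 in R 4.3.3 (lmFit and trended eBayes). Tests were two-sided, with Benjamini-Hochberg adjustment over all genes tested and a threshold of 0.05. The fit was tested on simulated data. Cuffdiff needs the alignments and was not repeated. Single genes were also compared by two-sided exact permutation tests in scipy 1.17.1. Positions came from GENCODE vM21 (GRCm38) and promoters from RefSeq (GRCm38.p6).

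All 9 IGF genes are named. From each pathway list the genes named are those with an unadjusted p under 0.05, at most the 4 of smallest p, and otherwise the 2 of highest mean level. The 5 genes most like the member of largest change and the member of highest level are also named. The members, gene lists and tests were chosen with earlier results of these data known. Marker lists for neurons, red and white blood cells, epithelium, brown fat and cartilage were also summed, and the omission of pairs of libraries was added after the values were seen.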

Additional observations from a re-analysis of the deposited data

How the results depend on the processing

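In all, 18 alternatives were run on the filter, pseudocount, scaling, model of the variance, pairing and choice of libraries. None gave an IGF gene an adjusted p under 0.05 (lowest 0.273), and of 162 log2 fold changes 152 kept their sign. *Igfbp2*, *Igfbp5*, *Igfbp6* and *Igfbp7* stayed negative and *Igf1r* stayed positive in all 18. *Igfbp4* turned to 0.018 with quantile normalization, and *Igfbp3* to -0.034 without WT library 1 and KO library 2, a setting chosen after seeing the data. Omission of single libraries gave log2 fold changes from -0.18 to 0.75 for *Igf1*, from -0.25 to 0.68 for *Igfbp3*, from -0.55 to 0.13 for *Igfbp4* and from -0.093 to 0.24 for *Insr*. They ran from -1.39 to -0.73 for *Igfbp7* and from -1.49 to -0.019 for *Igfbp6*. The number of genes called over the whole table, 1, was 2 without the mean-variance trend, 2 without moderation, 2 without WT library 1 and KO library 2, and 1 to 2 with a library left out. The number of IGF genes with an unadjusted p under 0.05, 2, was 1 without moderation and 1 without both libraries numbered 0.

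With the library number as a replicate block, 1 gene was called, no IGF gene was, and the log2 fold changes were the same by construction. The standard error fell from 0.51 to 0.17 for *Igf1* (log2 fold change 0.27, unadjusted p = 0.166) and from 0.40 to 0.36 for *Igfbp2* (log2 fold change -2.10, adjusted p = 0.291). It also fell from 0.52 to 0.21 for *Igfbp3* and from 0.39 to 0.19 for *Igfbp4*. For *Igf1r* it rose from 0.17 to 0.20 and for *Insr* from 0.26 to 0.28. Over all genes the deviations of same-numbered libraries correlated at 0.12, -0.076 and -0.0088, and 1 of the 3 WT libraries correlated best with its own number. The paper states that controls were littermates, but the sources used here do not say whether the library numbers mark litters. These correlations cannot decide whether same-numbered libraries were paired. Depth is unknown, and the spread between 3 libraries limits what can be called.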

Other observations

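Among the marker lists that were not set beside a result, 6 of 6 tested erythroid markers had a positive log2 fold change, with summed levels of 3863 to 7581 FPKM in WT and 4284 to 24357 FPKM in KO, which overlap. The 6 tested neuron markers were also all positive, with summed levels over the 9 listed genes of 8.21 to 23.1 FPKM in WT and 40.6 to 62.2 FPKM in KO. The macrophage and leukocyte markers summed to 38.2 to 217 FPKM in WT and 53.9 to 270 FPKM in KO, the epithelial and mesothelial markers to 66.7 to 233 and 82.1 to 185 FPKM, and the cartilage markers to 29.9 to 39.5 and 30.1 to 51.1 FPKM. Of the brown adipocyte markers, *Ucp1* and *Plin1* were listed at 0 in all 6 libraries, and the sum was 48.8 to 120 FPKM in WT and 11.3 to 48.9 FPKM in KO. A single gene, *Fabp4*, held most of this sum, at 63.1, 47.0 and 117 FPKM in WT and 9.10, 32.6 and 47.3 FPKM in KO. The sum is thus no measure of brown fat. The part of these tissues in the values of the IGF genes was not tested.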
